A study of Mus musculus with 6 samples.

Results

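Tmem86a encodes a lysoplasmalogenase, a membrane enzyme that splits the vinyl ether bond of lysoplasmalogens, and it was examined here together with 9 genes of the liver X receptor (LXR) programme of cholesterol and lipid handling: Abca1, Abcg1, Nr1h3, Mylip, Apoe, Lpl, Srebf1, Scd2 and Pltp. These 10 genes, of 54532 in the deposited table, were taken by name. They were selected on measured values, in that the difference between LPS + ATP cells and untreated cells was known when they were proposed, so that difference is given for them as a description, without a test. All 10 had a mean of at least 1 FPKM (fragments per kilobase of gene, scaled to the size of the library) and were among the 9794 genes tested.

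The cells were thioglycolate-elicited peritoneal macrophages of wild-type male C57BL/6J mice aged 6 to 8 weeks, lavaged 5 days after 3% thioglycolate, with 2 poly-A RNA libraries in each of 3 groups. Control cells were untreated. In Model, LPS (lipopolysaccharide of bacteria) was given at 500 ng/mL for 5.5 h and ATP at 2 mM for a further 0.5 h, a pair of stimuli that primes and triggers the NLRP3 inflammasome. In MUS, both stimuli were combined with 50 μM muscone, a macrocyclic ketone of musk, added 5 h after LPS and 0.5 h before ATP. No group received muscone without LPS and ATP, so an action of muscone on resting cells was not measured. No group received LPS alone or ATP alone either, so their parts in Model vs. Control cannot be told apart. The sources do not say whether the libraries of a group came from separate animals, so the p-values measure only the spread between these libraries.

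LXRα (Nr1h3) and LXRβ (Nr1h2) are nuclear receptors that bind oxysterols and act as heterodimers with RXR. In cholesterol-loaded macrophages they raise the transcription of the efflux transporters Abca1 and Abcg1, of lipoprotein genes such as Apoe, Lpl and Pltp, of the ubiquitin ligase gene Mylip, which limits lipoprotein uptake, and of Srebf1 with its fatty acid synthesis targets. LXR activation also restrains inflammatory genes, and bacterial ligands of Toll-like receptors are known to dampen LXR target expression in macrophages.

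To show what the known LXR element looks like and what the start of Tmem86a looks like beside it, promoter sequences were taken from RefSeq on GRCm38.p6, as windows from 250 bases before to 50 bases after each annotated start. Of the 10 genes, 7 were matched, in 12 windows, and Abcg1, Lpl and Scd2 were not. LXR with RXR binds a direct repeat of half-sites that are 4 bases apart. In the lines that follow the capitals mark the form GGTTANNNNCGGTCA, in which the first half-site is written without its first base. The lines read 5′ to 3′ on the plus strand, with the genes on the minus strand.
Abca1, chr4:53159928-53159982: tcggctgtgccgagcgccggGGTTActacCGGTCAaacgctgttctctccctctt
Srebf1, chr11:60210619-60210673: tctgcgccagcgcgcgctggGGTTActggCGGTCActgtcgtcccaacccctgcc
Fasn, chr11:120824738-120824792: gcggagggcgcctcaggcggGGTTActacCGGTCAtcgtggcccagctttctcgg
The element lay 67 to 53 bases before the start of Abca1, the gene of the transporter that loads cholesterol onto apolipoprotein A-I. In Srebf1, which encodes the precursor of a transcription factor for fatty acid synthesis genes, it lay 182 to 168 bases before a downstream start, inside the span of the longer transcripts. Fasn encodes fatty acid synthase and belongs to the other LXR target genes described further on.

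This form of the repeat was chosen after several forms had been tried in these windows, and both strands were searched. It was present in 4 of 32851 windows, or 0.0122%, of the 3 genes shown and of Prrg4. The strict repeat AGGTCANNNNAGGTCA was in 5 windows, or 0.0152%, none of them of the 10 genes. The single half-site AGGTCA was in 16.3% of all windows and in 0 of the 12 windows of these genes. A match is a description of letters and not of binding, and elements outside the windows were not searched.

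The 250 bases before the RefSeq start of Tmem86a on the plus strand are shown because this gene carried the largest difference of the 10. Capitals mark the CCAAT box and the GC box GGGCGG, which do not overlap and which both read on the minus strand. The CCAAT box lies 39 to 35 bases before the RefSeq start. The deposited coordinates start the gene earlier, at chr7:47050601, the first base of that box. The printed bases from there on thus lie inside the deposited span of the gene.
Tmem86a, chr7:47050390-47050639: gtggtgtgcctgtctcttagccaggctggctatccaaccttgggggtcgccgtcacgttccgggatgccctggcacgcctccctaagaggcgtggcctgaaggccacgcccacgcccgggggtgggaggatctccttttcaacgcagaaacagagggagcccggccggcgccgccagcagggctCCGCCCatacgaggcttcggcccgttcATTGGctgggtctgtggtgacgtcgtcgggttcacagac
Neither form of the repeat and no AGGTCA half-site was found in the Tmem86a window. A CCAAT box was in 37.4% of all windows and in 5 of the 12 windows of these genes, those of Tmem86a, Mylip, Srebf1 (2 windows) and Pltp. A GC box was in 35.7% of all windows and in 6 of the 12.

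The libraries held between 15526321 and 17135442 fragments on genes, recovered from the FPKM values and gene lengths. The library scale behind the deposited FPKM was 1.45 and 1.34 times the fragment total in the Control libraries and between 0.909 and 0.998 times the total in the others, so a Control FPKM is low relative to its share of fragments. Of the inflammatory genes used to check the stimulus, 6 of 6 were higher in Model than in Control as differentially expressed genes (DEGs: limma, adjusted p of at most 0.05 and absolute log2 fold change over 1). Control replicate 2 stood apart in these genes, with Il1b (interleukin 1β) at 34.2 FPKM against 0.55 in Control replicate 1 and Tnf at 183 against 8.62. Model replicate 1 stood apart in its breadth, with a fragment on 24906 genes against 17406 to 19200 in the other libraries. The 8 macrophage markers were all present, with a summed level between 9561 and 14283 FPKM, of which Lyz2 alone held between 7275 and 12007 FPKM. In Model vs. Control, Cd14 (log2 fold change 2.64) and Fcgr1 (3.57) of this list were higher as DEGs and Csf1r (−1.37) was lower as a DEG. The other genes of this list were not DEGs. No T cell, B cell or mast cell marker had a mean of 1 FPKM, and the neutrophil genes S100a9, Ly6g and Retnlg, the eosinophil genes Epx and Prg2 and the adipocyte genes Adipoq and Cidec were listed at 0 in all libraries. Other genes of these lists did move. Pparg of the adipocyte list, which macrophages also express, was at 24.2 and 9.31 FPKM in Control against 2.74 and 2.08 in Model, as a DEG, and Siglecf of the eosinophil list was at 4.06 and 2.46 against 1.498 and 1.23. In the list of mesothelial and fibroblast markers, which summed to 11.8 to 22.7 FPKM, Dcn was higher in Model as a DEG, at 7.501 and 6.64 FPKM against 2.07 and 3.13. The 6 neutrophil markers, of which S100a8, Mmp8 and Csf3r were above 0, summed to between 52.6 and 53.3 FPKM in Control, with a range of 132 to 159 in Model and of 119 to 121 in MUS. In Model vs. Control, S100a8 was higher as a DEG (log2 fold change 1.90). Csf3r was higher but not a DEG (1.19), and Mmp8 went the other way with overlapping groups (−0.51). The part of other cells in the results was not tested. In bulk RNA, fewer cells of a type and less RNA per cell cannot be told apart.

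**Figure D1:**
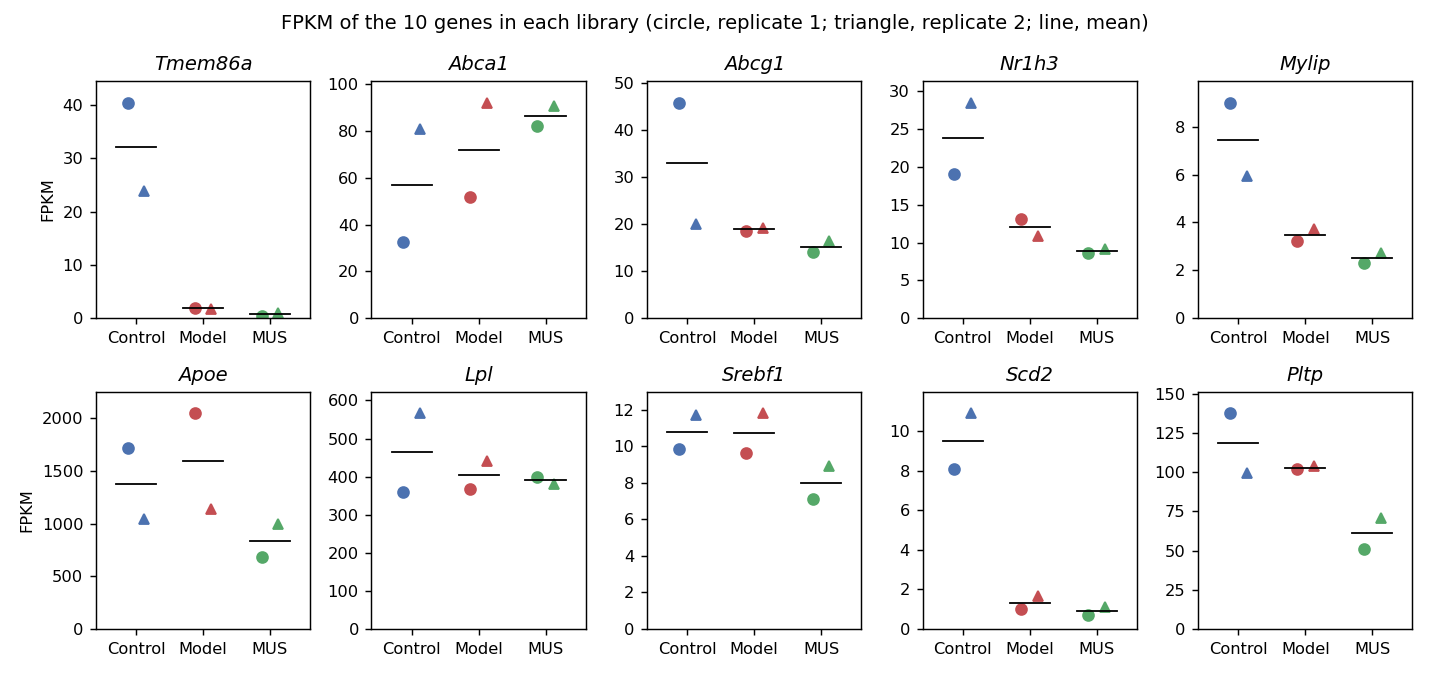
FPKM of each of the 10 genes (vertical axes, linear and starting at 0, with a scale of their own) in the 6 libraries by group (horizontal axes), with circles for replicate 1, triangles for replicate 2 and lines for the means of 2 libraries. Tmem86a and Scd2 are far lower in the Model and MUS libraries than in Control, while Abca1 is the gene whose MUS libraries lie above both Control libraries.

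Tmem86a (ENSMUSG00000010307, chr7:47050601-47054777, plus strand) showed the widest range of the 10 genes. Its level was 40.5 and 23.8 FPKM in Control, 1.92 and 1.78 in Model, with 0.456 and 1.04 in MUS. The Control libraries were both far above the Model libraries, and the Model libraries were both above the MUS libraries, with no overlap at either step. Behind these levels stood 1747 and 1028 fragments for Control, 51 and 52 for Model and 13 and 32 for MUS, so the MUS values carry a large counting error. The mean was 17.4 times higher in Control than in Model and 42.9 times higher than in MUS. With the libraries scaled to their fragment totals these ratios were 25.8 and 62.3. In order of mean level, Tmem86a was the sixth of the 10 genes in Control, the ninth in Model and the tenth in MUS.

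The genes were chosen with the difference between Model and Control, and other earlier results of these data, known. A direct test was made in MUS vs. Model, which shares its Model libraries with that difference and is not independent of the choice. There the log2 fold change of Tmem86a was −0.72 (SE 0.30, 95% interval −1.44 to −0.005, n = 2 per group), with an unadjusted limma p of 0.0488 and an adjusted p of 0.590. It was thus not a DEG, and the lower level in MUS is within what the adjustment over 9794 genes cannot separate from the spread between libraries. It was lower in both MUS libraries than in either Model library. The log2 fold change of Model vs. Control was −3.49 and that of MUS vs. Control −4.22 on the log2(FPKM + 1) scale, which understates changes of low values.

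The other lysoplasmalogenase gene, Tmem86b, differed from Tmem86a in its level in Control and in its direction in Model vs. Control. Its level was 0.525 and 0.821 FPKM in Control, 1.52 and 1.78 in Model, with 1.14 and 1.38 in MUS. Both Model libraries were above both Control libraries, with a log2 fold change of 0.67 (limma adjusted p = 0.0906), which did not pass the threshold. In MUS vs. Model its direction was that of Tmem86a. Both MUS libraries were below both Model libraries, at a log2 fold change of −0.23 (limma adjusted p = 0.848). In the list of plasmalogen synthesis and breakdown, 5 of 9 genes were tested and 0 were DEGs in either direction, at either step. Gnpat and Agps, which make the ether lipid backbone in peroxisomes, had log2 fold changes of −0.81 and 0.38 in Model vs. Control, and Tmem189, which introduces the vinyl ether bond, had −0.64. The adjusted p-values of these 3 genes were 0.0703, 0.332 and 0.191. With fragment-total scaling, Gnpat and Tmem189 were lower in Model as DEGs.

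The efflux transporters did not share an order of the groups. Abca1 (ENSMUSG00000015243, chr4:53030787-53159895, minus strand), which hands cholesterol and phospholipid to apolipoprotein A-I, was at 32.8 and 80.9 FPKM in Control, 51.7 and 92.3 in Model, with 82.4 and 90.7 in MUS. The groups overlapped in Model vs. Control and in MUS vs. Model, and the Control libraries differed between themselves by more than the group means did. Abcg1 (ENSMUSG00000024030, chr17:31057698-31115777, plus strand), which moves cholesterol to high density lipoproteins, was at 45.9 and 20.1 FPKM in Control, 18.6 and 19.3 in Model, with 14.0 and 16.5 in MUS. The groups did not overlap at either step, yet Control replicate 2 was close to the Model libraries. The log2 fold change of Model vs. Control for Abcg1 was −0.66 with both Control libraries, −1.23 without Control replicate 2 and −0.08 without Control replicate 1. For Abca1 the same 3 values were 0.42, 1.05 and −0.22, so the direction depended on the Control library. With fragment-total scaling Abca1 was at −0.12. In MUS vs. Model the log2 fold change was 0.32 (SE 0.49) for Abca1 and −0.30 (SE 0.39) for Abcg1, with limma adjusted p-values of 0.908 and 0.887.

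Nr1h3 (ENSMUSG00000002108, chr2:91184061-91202834, minus strand), the gene of LXRα, was lower at each step. Its level was 19.0 and 28.5 FPKM in Control, 13.1 and 10.9 in Model, with 8.55 and 9.20 in MUS, with no overlap between the groups. In Model vs. Control its log2 fold change was −0.91, short of the fold threshold of a DEG. In MUS vs. Model the log2 fold change was −0.39 (SE 0.27, limma adjusted p = 0.757). With fragment-total scaling the Model vs. Control value was −1.43.

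Mylip (ENSMUSG00000038175, chr13:45389742-45412022, plus strand), a ubiquitin ligase that limits lipoprotein uptake, followed the same order. It was at 9.01 and 5.92 FPKM in Control, 3.22 and 3.73 in Model, with 2.31 and 2.70 in MUS, again with no overlap at either step. The difference on the log2 scale was −0.90 between Model and Control and −0.35 between MUS and Model (SE 0.24, limma adjusted p = 0.756).

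The secreted proteins Apoe, Lpl and Pltp had the highest FPKM of the 10 genes in Control and Model, and their log2 fold changes between these groups lay between −0.18 and 0.19. Apoe (ENSMUSG00000002985, chr7:19696109-19699188, minus strand), the apolipoprotein that carries effluxed cholesterol, was at 1718 and 1039 FPKM in Control, 2046 and 1138 in Model, with 680 and 992 in MUS. Both MUS libraries were below every Control and Model library, while Control and Model overlapped. In MUS vs. Model the log2 fold change of Apoe was −0.89 (SE 0.48, 95% interval −2.04 to 0.25, limma adjusted p = 0.694), an imprecise value. Pltp (ENSMUSG00000017754, chr2:164839518-164857711, minus strand), which transfers phospholipids between lipoproteins, was at 138 and 99.3 FPKM in Control, 102 and 104 in Model, with 51.3 and 70.6 in MUS. Its MUS libraries were below all others, by −0.77 on the log2 scale against Model (SE 0.33, 95% interval −1.54 to 0.007, limma adjusted p = 0.600). Of the exonic bases of Pltp, 19.3% lie opposite exons of Ctsa on the other strand, and the library protocol in the labels does not mention strand marking, so fragments from that stretch could belong to either gene. Lpl (ENSMUSG00000015568, chr8:68880491-68907448, plus strand), which hydrolyses lipoprotein triglyceride, was at 360 and 566 FPKM in Control, 367 and 442 in Model, with 399 and 381 in MUS. The Lpl groups overlapped in all 3 comparisons, and the MUS vs. Model value was −0.04 (95% interval −0.93 to 0.84, limma adjusted p = 0.988). Of the 5 partners of lipoprotein lipase, among them its endothelial anchor Gpihbp1 and its inhibitor Angptl4, 0 reached the FPKM filter.

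The genes of fatty acid synthesis did not share a pattern. Srebf1 (ENSMUSG00000020538, chr11:60199089-60222581, minus strand) was at 9.84 and 11.7 FPKM in Control, 9.63 and 11.8 in Model, with 7.09 and 8.94 in MUS. Control and Model overlapped almost fully, and both MUS libraries were below them, by −0.38 on the log2 scale against Model (SE 0.24, limma adjusted p = 0.734). Scd2 (ENSMUSG00000025203, chr19:44293676-44306864, plus strand), a desaturase that makes monounsaturated fatty acids, was at 8.11 and 10.9 FPKM in Control, 0.988 and 1.67 in Model, with 0.679 and 1.12 in MUS. The Control libraries were far above the others, by a mean ratio of 7.16 to Model and 10.6 to MUS, while Model and MUS overlapped (log2 fold change −0.29, SE 0.26, limma adjusted p = 0.821). Of the 50-base stretches of Scd2 transcripts, 3.97% also occur in transcripts of other genes, among them Scd1, Scd3 and Scd4. Scd1, the paralog induced by LXR in liver, was between 0.669 and 1.14 FPKM in all libraries and was below the filter.

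Counted over the 10 genes, 2 were past the DEG thresholds as lower in Model than in Control (Tmem86a and Scd2) and 0 as higher, which is given as a description and not as a test of genes chosen with this contrast known, beside 5.56% of all genes tested called lower and 9.5% called higher. These shares are 545 lower and 930 higher genes, which became 1554 and 646 with fragment-total scaling and 715 and 707 with quantile normalization. The median log2 fold change of the 10 genes was −0.42, beside 0.04 for all genes tested. With fragment-total scaling the 2 medians were −0.96 and −0.40, and 4 of the 10 genes were called lower, with Nr1h3 and Mylip added. Leaving out Control replicate 2 also gave 4, in this case Tmem86a, Scd2, Abcg1 and Mylip. Of the 10 genes, 5 did not overlap between the groups and were lower in Model, beside 28.5% of all genes. Within batches, the log2 difference between Model and Control was below 0 in both for the same 5 genes, as the lack of overlap requires. It was −3.83 and −3.16 for Tmem86a and −2.20 and −2.16 for Scd2, and it was above 0 in both for Abca1 and Apoe. Nothing is read from these counts.

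In MUS vs. Model, 0 of the 10 genes were DEGs in either direction, and 0% of all genes tested were called lower and 0% higher by limma. The paper applied DESeq2 at the same thresholds and reported DEGs in this comparison, most of them lower with muscone. The counts here rest on another model, limma on log2(FPKM + 1), and the cause of the difference was not tested. At an unadjusted p under 0.05, 569 of all genes were lower and 256 higher, and of the 10 genes only Tmem86a was lower, beside 5.81% of all genes. The voom test on recovered fragments also called 0 genes. The log2 fold change was negative for 9 of the 10 genes, all but Abca1, with a median of −0.37 beside 0.01 for all genes tested. For 7 of the 10 genes (Tmem86a, Abcg1, Nr1h3, Mylip, Apoe, Srebf1 and Pltp) both MUS libraries were below both Model libraries, beside 21% of all genes. The labels give the replicate number as a batch. Within batches the log2 difference between MUS and Model was below 0 in both for these 7 genes, as the lack of overlap requires. It was also below 0 in both for Scd2 (−0.24 and −0.33 in replicates 1 and 2), but not for Abca1 (0.66 and −0.02) or Lpl (0.12 and −0.21). For Tmem86a the within-batch values were −1.002 and −0.44, for Apoe −1.59 and −0.20 and for Pltp −0.98 and −0.55. With the number as a block, 2 of all genes were called higher and 2 lower, none of them among the 10. This comparison shares its Model libraries with Model vs. Control, so the values of the 2 comparisons are not independent of each other.

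In MUS vs. Control, 8 of the 10 genes were lower with no overlap, beside 33.8% of all genes, and Abca1 was higher with no overlap, at a log2 fold change of 0.73. Lpl overlapped, at −0.21. The other fold changes were −4.22 for Tmem86a, −2.46 for Scd2, −1.30 for Nr1h3, −1.25 for Mylip, −0.96 for Abcg1, −0.95 for Pltp, −0.70 for Apoe and −0.39 for Srebf1. With fragment-total scaling the mean of Abca1 in Control was 0.936 times that in MUS, and the groups then overlapped, at 47.6 and 108 in Control against 76.8 and 89.3 in MUS. The stepwise order, lower in Model than in Control and lower again in MUS with no overlap at either step, was seen for 4 of the 10 genes (Tmem86a, Abcg1, Nr1h3 and Mylip) and for 6.63% of all genes tested. The 2 steps share the Model libraries, and the first step was part of what chose the genes.

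**Figure D2:**
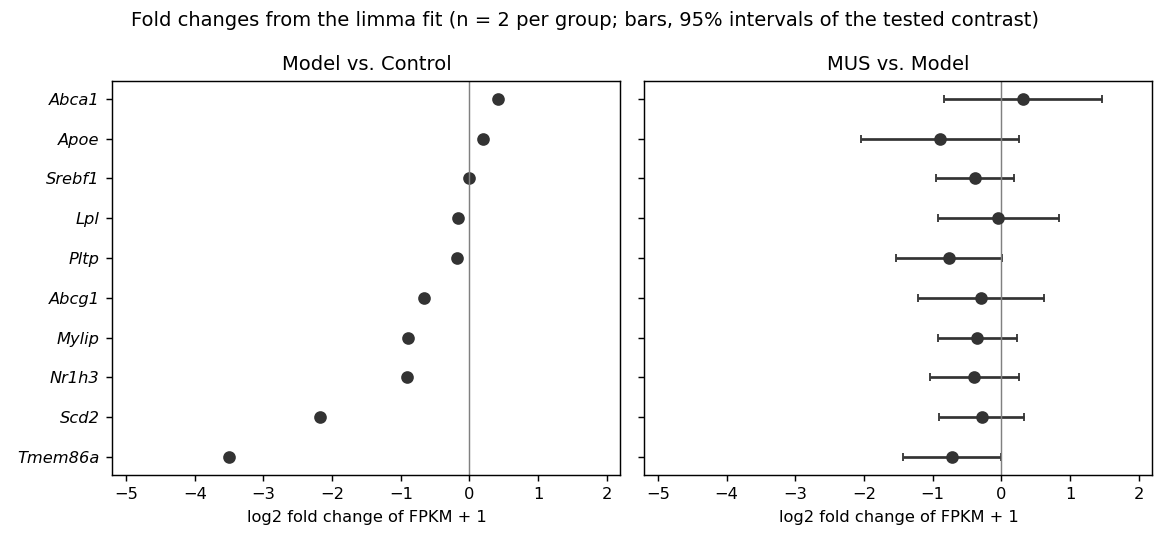
Log2 fold change of FPKM + 1 (horizontal axes) of the 10 genes (rows) in Model vs. Control at left, as points without intervals, and in MUS vs. Model at right, with 95% intervals from the limma fit of 2 libraries per group. Tmem86a and Scd2 lie at −3.49 and −2.18 at left, and at right 9 of the 10 points lie below 0, with the interval of every gene but Tmem86a reaching past 0.

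The scale of the FPKM mattered for the genes with small differences. The median log2 fold change of all genes in Model vs. Control was 0.04 with the deposited FPKM, −0.40 with fragment-total scaling, −0.06 with quantile normalization and −0.03 with voom on recovered fragments. Tmem86a was between −3.49 and −4.14 under these 4 settings and Scd2 between −2.18 and −2.93, so both were below the median of all genes by a wide margin each time. Abca1 and Apoe were above 0 with the deposited FPKM and voom, and below 0 with fragment-total scaling (−0.12 and −0.36) and with quantile normalization (−0.29 and −0.60). Relative to the median of all genes, fragment-total scaling left both above it, and quantile normalization left both below it.

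**Figure D3:**
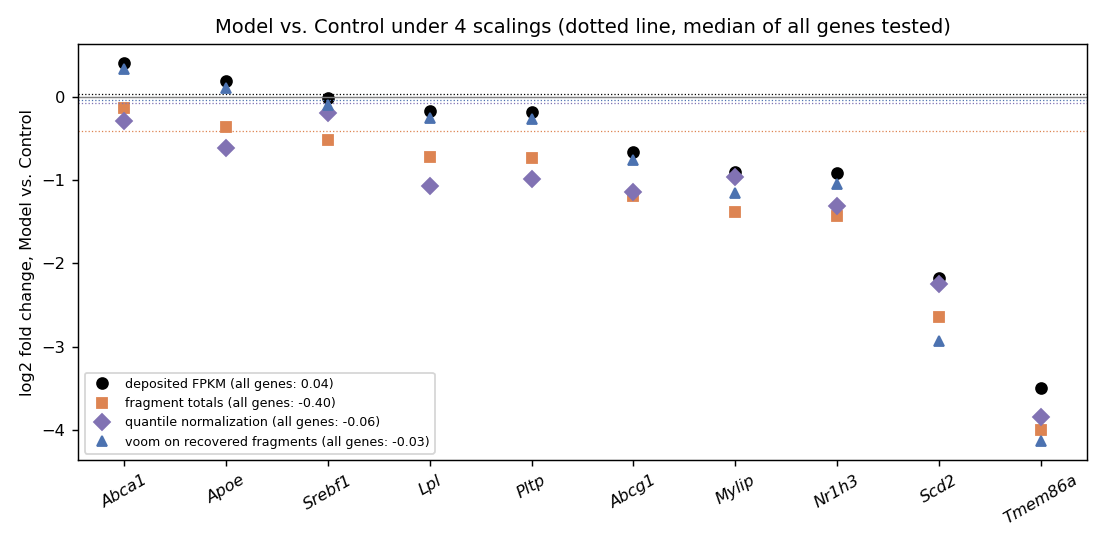
Log2 fold change in Model vs. Control (vertical axis) of the 10 genes (horizontal axis) with the deposited FPKM, fragment-total scaling, quantile normalization and voom on recovered fragments. The dotted lines are the medians of all genes tested, at 0.04, −0.40, −0.06 and −0.03, and Tmem86a and Scd2 lie far below them under each scaling.

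The receptor partners and cofactors were examined next, in 12 genes of which 11 were tested. In Model vs. Control, 0 were DEGs higher and 2 were DEGs lower, Rxra among them, beside 9.5% and 5.56% of all genes tested. Rxra, the gene of 1 form of RXR, fell from 18.1 and 11.1 FPKM in Control to 2.57 and 3.78 in Model, with 2.28 and 3.05 in MUS (log2 fold change −1.88, SE 0.29, limma adjusted p = 0.00857). Rxrb, the gene of another form, was at 4.78 and 2.65 FPKM in Control and 2.11 and 1.88 in Model. It was not a DEG, at a log2 fold change of −0.62 (limma adjusted p = 0.197). Without Model replicate 1 Rxra did not pass, at a log2 fold change of −1.67 (limma adjusted p = 0.0544), and with no filter on low values it was not called. Nr1h2, the gene of LXRβ, was at 16.1 and 13.2 FPKM in Control, 17.1 and 14.5 in Model, with 5.58 and 10.04 in MUS. Its 2 MUS libraries were below all others, by −0.97 on the log2 scale against Model (SE 0.31, limma adjusted p = 0.463).

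Ch25h, which makes the oxysterol 25-hydroxycholesterol, was the largest change among the lipid lists. It rose from 0.194 and 1.49 FPKM in Control to 140 and 77.9 in Model, and was at 61.6 and 45.9 in MUS (Model vs. Control log2 fold change 5.93, SE 0.44, limma adjusted p = 0.00107). Both MUS libraries were below both Model libraries, at −0.96 (SE 0.44, adjusted p = 0.629). Ch25h was the only DEG of the 4 genes tested of 8 in the oxysterol list, and it was called in every alternative tried. Of 16 other LXR target genes 7 were tested, and 0 were DEGs in either comparison. With fragment-total scaling, Arl4c (−1.19, limma adjusted p = 0.0148) and Lpcat3 (−1.08, adjusted p = 0.0194) were DEGs lower in Model. The median of these 7 was −0.48 on the log2 scale between Model and Control and 0.37 between MUS and Model. Lpcat3, which puts polyunsaturated fatty acids into phospholipids, was at 8.44 and 7.78 FPKM in Control, 4.51 and 5.65 in Model, with 7.94 and 8.25 in MUS. The fold changes of Lpcat3 were −0.59 at the first step and 0.59 at the second on the log2 scale (limma adjusted p = 0.102 and 0.513), so its order over the groups was not that of Tmem86a, Nr1h3 or Mylip. Fasn, whose promoter holds the element, had −0.54 and −0.03 with overlapping groups.

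Among the genes of cholesterol uptake, storage and transport, 11 of 12 were tested, and in Model vs. Control 3 were DEGs higher and 5 lower, beside 9.5% of all genes tested called higher and 5.56% called lower. Those that rose were Cav1 (caveolin 1, log2 fold change 3.49), the scavenger receptor gene Msr1 (2.08) and the endosomal cholesterol transporter gene Stard3 (1.77). Those that fell were Nceh1 (−2.19) and Lipa (−1.34), which release cholesterol from its esters, Soat1 (−1.44), which makes the esters, Npc1 (−1.70), which exports cholesterol from lysosomes, and the HDL receptor gene Scarb1 (−1.33). Their limma adjusted p-values were between 0.00620 for Cav1 and 0.0351 for Lipa. Of those that rose, Msr1 was not called without a filter on low values, with the 2 groups compared alone, with quantile normalization, or when any 1 library other than Control replicate 2 was left out (limma adjusted p between 0.0593 and 0.162), and Cav1 was not called without a filter (0.0662). Nceh1 was at 101 and 49.0 FPKM in Control against 15.2 and 14.1 in Model and 17.5 and 17.5 in MUS. Without Model replicate 1 and with no filter on low values 0 of the 5 were called lower, and without Control replicate 1 only Nceh1 was. Of these 5, without Model replicate 1, the adjusted p lay between 0.0551 for Nceh1 and 0.1004 for Lipa. With the replicate number as a block, Lipa was not called (limma adjusted p = 0.0646). The SREBP2 list of sterol synthesis, the pathway that acts opposite to LXR in cholesterol balance, had 13 of 14 genes tested and 0 DEGs in either comparison, and Srebf2, which encodes its transcription factor, had log2 fold changes of 0.13 and −0.50 at the first and second step (limma adjusted p = 0.803 and 0.734). No gene of these lists was a DEG of MUS vs. Model in any setting tried.

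**Figure D4:**
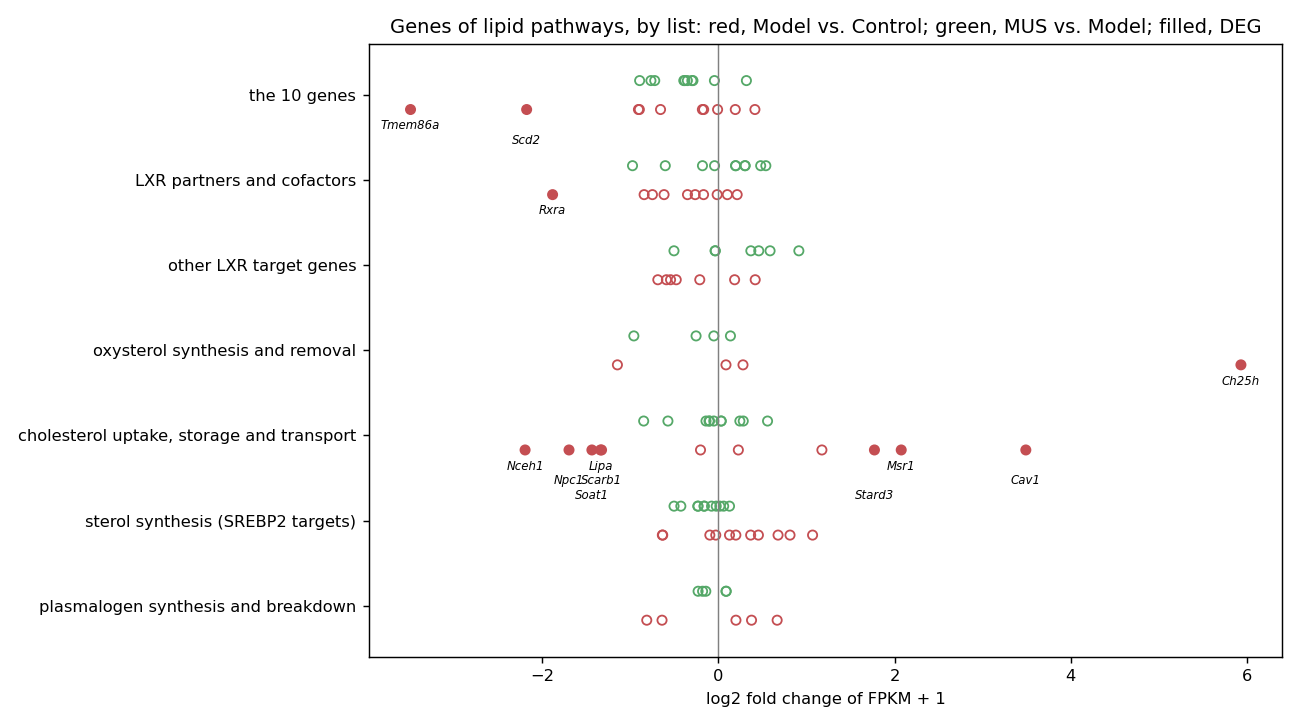
Log2 fold change of FPKM + 1 (horizontal axis) of tested genes of each lipid list (rows), with red circles for Model vs. Control, green circles for MUS vs. Model and filled circles for DEGs, which are named. Ch25h at 5.93 and Cav1 at 3.49 lie farthest right and Tmem86a at −3.49 farthest left, and no green circle is filled.

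Across the 6 libraries, the genes whose profile was closest to that of Tmem86a were found by the root mean square difference of log2(FPKM + 1) values, each centred on its gene's mean, over 9793 other genes. The closest were Cebpa (difference 0.204), Cd300lb (0.395), Slc43a2 (0.479), Ypel3 (0.490) and Klc4 (0.513). Cebpa, a transcription factor of the myeloid lineage, was at 152 and 68.4 FPKM in Control, 11.4 and 10.9 in Model, with 4.54 and 6.33 in MUS. It thus had the same order of the 6 libraries as Tmem86a, including the lower value in MUS replicate 1. Of the other 9 genes, Scd2 was nearest to Tmem86a, at a difference of 0.827 and rank 50, followed by Mylip at 1.33 and rank 601. Abca1 was farthest, at 2.23 and rank 7830. The likeness is a description over 6 libraries that share their treatments.

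**Figure D5:**
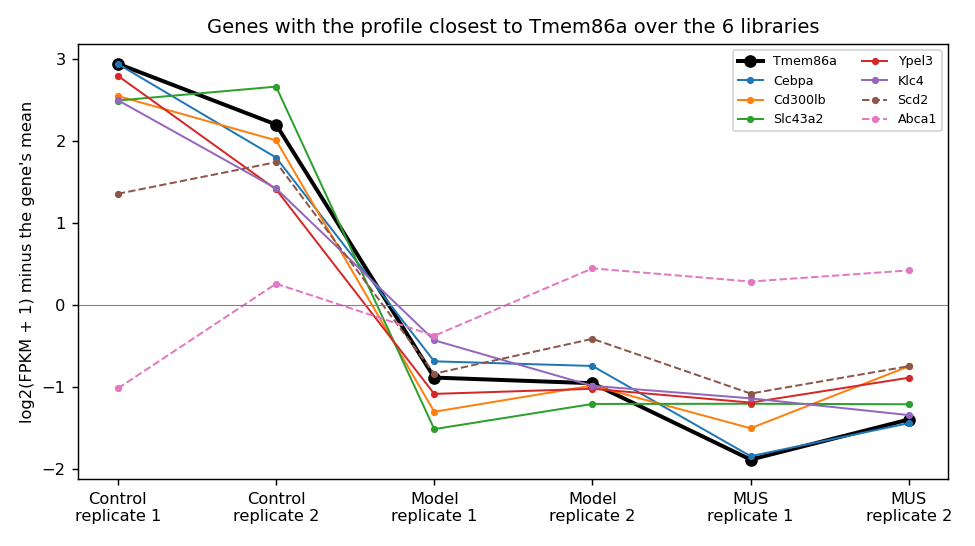
Log2(FPKM + 1) minus each gene's mean over the 6 libraries (vertical axis) in each library (horizontal axis) for Tmem86a, the 5 genes nearest to it (solid lines) and Scd2 and Abca1 (dashed lines). Cebpa stays within a root mean square difference of 0.204 of Tmem86a, while Abca1, at 2.23, is lowest in Control replicate 1, where Tmem86a is highest.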

How the data were processed

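RNA-seq of mouse peritoneal macrophages was analysed in 6 libraries, 2 each of Control, Model and MUS, grouped by the treatment in the sample labels. The authors deposited FPKM values per gene and library in a single table. The paper's methods name RSEM for quantification, while the submitters' processing notes name HISAT2, featureCounts 1.5.0-p3 and GRCm39. Of the 54495 gene identifiers shared with GENCODE M21 (GRCm38), 98.3% have the same start and end there, as do 8 of the 10 genes. Abcg1 and Scd2 differ, and for Abcg1 the deposited length of 4066 bases, on which its FPKM rest, compares with 7298 exonic bases in GENCODE M21. Coordinates are those of the deposited table. FPKM multiplied by gene length gave whole fragments within a tolerance of 0.1 for 100% of values. A count of 0 in a gene of 1 kb allows up to 0.131 to 0.213 FPKM (3 fragments), for counting error only. Columns without a sample numbered 0.

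Genes with a mean of at least 1 FPKM (9794) were fitted as log2(FPKM + 1) with limma 3.58.1 in R 4.3.3 (lmFit, contrasts.fit and eBayes with a trend, two-sided, 3 residual and 4.04 prior degrees of freedom), with all 6 libraries in a model of 3 groups. Genes with a p of at most 0.05 after Benjamini-Hochberg adjustment over the genes tested, and with an absolute log2 fold change over 1, were DEGs. An exact permutation test of 2 libraries against 2 cannot go below 0.333. Lists were described by counts and medians, without a set test. The alternatives were a filter at 5 FPKM, no filter, a pseudocount of 0.1, no trend, the 2 groups compared alone, the replicate number as a block, fragment-total scaling, quantile normalization, voom on recovered fragments with TMM, and each library left out. Fragment-total scaling with the block was added after seeing the data.

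A batch field of the labels holds the replicate number, which pairs the libraries of a number. The differences between replicates 1 and 2 correlated across genes at 0.12 (Control with Model), 0.14 (Model with MUS) and −0.09 (Control with MUS).

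The 10 genes and the lists were chosen with earlier results of these data known. The genes named are the 10, of each list the DEGs and Nr1h2, Rxra, Tmem86b, Srebf2, Scd1, Ch25h and Lpcat3, and the 5 genes nearest to Tmem86a. Other list genes were named after their values were seen. The form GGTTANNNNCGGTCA was likewise picked after seeing the windows. Results for some list genes are not reported here, and they are left out of the figure of the lists.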

Additional observations from a re-analysis of the deposited data

How the results depend on the processing

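Of the 10 genes, 2 were past the DEG thresholds as lower in Model vs. Control, a description of genes chosen with this contrast known. The count was 1 with a filter at 5 FPKM, where Mylip and Scd2 were not tested, and 3 with quantile normalization. It was 4 with fragment-total scaling, 4 with voom and 4 with fragment-total scaling and the replicate block. The median of the 10 genes, −0.42, was −0.96 with fragment-total scaling, with or without the block, −1.03 with quantile normalization, −0.17 over the 8 genes left by the filter at 5 FPKM, and between −0.52 and −0.36 with a library left out. Genes of the other lists called lower, 7 in all, numbered 0 without a filter, 3 with the 2 groups compared alone, 14 with fragment-total scaling, 16 with that scaling and the block, and 0 to 9 with a library left out. Those called higher, 4 in all, numbered 2 without a filter and 3 to 6 with a library left out. Over all genes, 545 were called lower in Model vs. Control, but 274 with the filter at 5 FPKM, 32 without a filter, 256 with the 2 groups compared alone, 1554 with fragment-total scaling, 1660 with that scaling and the block, and 140 to 840 with a library left out. The 930 called higher became 228 without a filter, 541 with the 2 groups compared alone, 646 with fragment-total scaling, and 534 to 1237 with a library left out.

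In MUS vs. Model, no gene of the 10 or of the lists was called under any alternative. Over all genes, the count lower was 2 with the 2 groups compared alone, 2 with the replicate block and 0 to 12 with a library left out, and the count higher was 1 with a pseudocount of 0.1, 5 with the 2 groups compared alone, 2 with the replicate block and 0 to 19 with a library left out. The sign of Abca1 reversed without Model replicate 1, in a range of −0.093 to 0.73 over the libraries left out, and that of Lpl reversed with quantile normalization (0.032) and without Model replicate 2, in a range of −0.18 to 0.089. The smallest adjusted p over the alternatives was 0.383 for Tmem86a and 0.260 for Apoe. Pairing the libraries by batch, as a replicate block, gave 976 genes higher and 606 lower in Model vs. Control, called Lipa no longer and 1 sterol synthesis gene in place of 0, and changed no other call of the 10 genes or the lists. The cause of these differences was not tested. Tmem86a had 13 to 52 fragments in the Model and MUS libraries, with 2 libraries per group, so its values there are imprecise. Whether depth bears on the absence of calls in MUS vs. Model was not tested.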
